A study of Homo sapiens with 6 samples.

Results

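Chromosomes 8 and 18 were described here by their open chromatin in 3 B-cell acute lymphoblastic leukemia lines. Both are reported as gained in the karyotype of RS4;11. Peaks of all 12 lists on the 22 autosomes that shared at least 1 bp were joined into merged regions. Of 126189 autosomal regions (130920 with the sex chromosomes), 11841 lay on these chromosomes, 8266 on chromosome 8 and 3575 on chromosome 18, or 9.38% in all. The rule for members used position only and no measured value, but it was set with earlier results of these data known.

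The assay was ATAC-seq, where a transposase cuts and tags DNA that is not packed away, so that peaks mark open chromatin. Cells of RS4;11 were set against those of SEM and RCH, each with an shRNA against NSD2 (sh2) or a non-targeting control shRNA (NT). SEM shares with RS4;11 the fusion gene KMT2A-AFF1, and RCH was read as RCH-ACV, the name in the growth protocol. NSD2 is a methyltransferase of lysine 36 on histone H3. The labels give no NSD2 genotype and no karyotype of the cells used. Each of the 6 samples came with 2 peak lists, read as 2 libraries, and nothing says that these came from separate cultures. The lists held 40506 to 81527 autosomal peaks, and depth is unknown. All coordinates are hg19.

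As background, leukemia cells often carry extra copies of whole chromosomes or of single arms. Each extra copy adds DNA that the transposase can cut, so a peak list can differ between lines on a chromosome whose copies differ. Chromosome 18 is among the gene-poor human chromosomes. RefSeq (GRCh38.p14) lists 270 protein-coding genes on it, or 7.55 per 100 merged regions, the fewest of the 22 autosomes, and 715 on chromosome 8, or 8.65 per 100. Copy number was not measured here, and its part in the values below was not tested.

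Chromosome 8 as a whole did not set RS4;11 apart. Its share of a list's autosomal peaks was 5.60% and 5.51% with sh2 and 5.93% and 6.002% with NT in RS4;11, 5.68% and 5.70% with sh2 and 5.35% and 5.45% with NT in SEM, and 6.02% and 5.99% with sh2 and 6.73% and 6.39% with NT in RCH. The lists of RS4;11 lay inside the range of the others, and RCH had the highest mean. The log2 ratio of RS4;11 over SEM and RCH was -0.04, at place 13 of the 22 autosomes from the highest. An exact permutation test over samples on the difference of mean shares gave p = 0.8 (2 samples against 4, two-sided). Here and below, the sh2 and NT samples of a line are the same cell line, not independent lines. A permutation p of a line against the others therefore does not measure the spread between lines.

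Chromosome 18 held a larger share of peaks in every list of RS4;11 than in any list of the other lines. The share was 2.92% and 2.93% with sh2 and 3.05% and 3.08% with NT in RS4;11, 2.64% and 2.69% with sh2 and 2.47% and 2.48% with NT in SEM, and 2.14% and 2.10% with sh2 and 2.56% and 2.60% with NT in RCH. SEM and RCH overlapped with each other. The log2 ratio was 0.28, the second highest of the 22 autosomes after chromosome 13 with 0.45. The exact permutation p was 0.0667, the smallest that 6 samples allow here, and 0.489 after Benjamini-Hochberg adjustment over the 22 autosomes. The line's 4 lists lay above all 8 others on 2 of 22 autosomes (9.09%), namely 13 and 18, and below them on 3 (13.6%). On chromosome 4, another gene-poor chromosome, the log2 ratio was 0.25, but the lists overlapped, with 6.15% to 7.23% in RS4;11 and 4.64% to 6.37% in SEM and RCH.

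The flat value of chromosome 8 hid opposite values on its arms. The longest stretch without a merged region ran from 43838824 to 46841319 on chromosome 8 (3.002 Mb) and from 15376006 to 18511399 on chromosome 18 (3.14 Mb), where the centromeres lie, and each chromosome was divided there. This division was chosen after the values along the chromosomes had been seen. It left 2088 regions on the short and 6178 on the long arm of chromosome 8, and 658 and 2917 on those of chromosome 18.

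On the short arm of chromosome 8, the share of peaks was 1.12% and 1.16% with sh2 and 1.18% and 1.18% with NT in RS4;11, 1.64% and 1.64% with sh2 and 1.65% and 1.67% with NT in SEM, and 2.05% and 1.97% with sh2 and 2.10% and 1.98% with NT in RCH. The lines did not overlap, with RS4;11 lowest, SEM between and RCH highest, in sh2 and in NT cells alike. The log2 ratio of RS4;11 over SEM and RCH was -0.66, the lowest of 42 parts obtained by dividing all autosomes in this way (exact permutation p = 0.0667, the smallest possible, 0.494 adjusted over the 42 parts). Its lists lay below all others on 5 of these parts (11.9%) and above them on 4 (9.52%). For RCH over the other lines the short-arm value was 0.53, the second highest of 42, and all RCH lists lay above all others on 7.14% of the parts. For SEM it was 0.05.

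**Figure D1:**
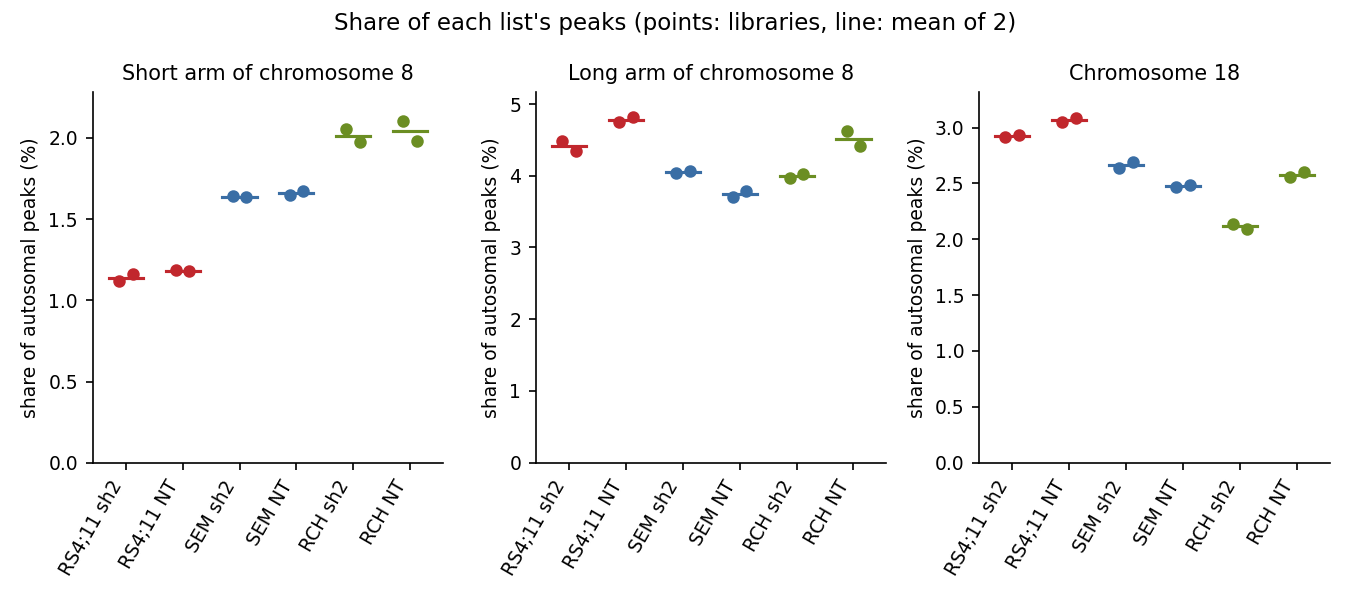
Share of each list's autosomal peaks, in percent, that lay on the short arm of chromosome 8, on its long arm and on chromosome 18, with 1 point per library and a line at the mean of the 2 libraries of a sample. RS4;11 is lowest on the short arm of chromosome 8, with 1.12% to 1.18%, and highest on chromosome 18, with 2.92% to 3.08%.

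The long arm of chromosome 8 went the other way. Its share was 4.48% and 4.35% with sh2 and 4.75% and 4.82% with NT in RS4;11, against 4.04% and 4.06% with sh2 and 3.70% and 3.78% with NT in SEM, and 3.96% and 4.02% with sh2 and 4.63% and 4.41% with NT in RCH. The log2 ratio was 0.17 (exact permutation p = 0.267), and the RS4;11 sh2 lists overlapped with those of RCH NT. Among sh2 lists alone and among NT lists alone, the line was above both others in each list.

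The arms of chromosome 8 were also set against each other within each list. For 100 long-arm peaks there were 24.9 and 26.7 short-arm peaks with sh2 and 24.96 and 24.5 with NT in RS4;11. SEM had 40.6 and 40.3 with sh2 and 44.5 and 44.3 with NT, and RCH had 51.8 and 49.1 with sh2 and 45.5 and 44.9 with NT. The 8 lists of SEM and RCH all lay above the other 4. The mean log2 ratio of short over long arm was -1.98 in RS4;11 and -1.15 in the other lines, a difference of -0.83, the lowest of the 20 autosomes that could be divided (exact permutation p = 0.0667, the smallest possible). On chromosome 18 the same difference was -0.23 (exact permutation p = 0.2), and the lists overlapped.

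Both arms of chromosome 18 had a positive log2 ratio in RS4;11, the long arm with 0.33 and the short arm with 0.11. The long-arm share was 2.33% and 2.31% with sh2 and 2.48% and 2.52% with NT in RS4;11, above the 1.58% to 2.13% of the SEM and RCH lists (exact permutation p = 0.133). The short-arm share was 0.562% to 0.622% in RS4;11 and 0.508% to 0.574% in the other lines, and these overlapped (exact permutation p = 0.2). In RCH the short-arm lists, at 0.508% to 0.530%, were below all others, as on 9.52% of the parts.

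Common regions, those open in all 12 lists, stood at 6.78 per Mb on the short arm of chromosome 8. The 3 parts nearest to it in this density were the long arm of chromosome 3, the long arm of chromosome 2 and the short arm of chromosome 18, with log2 ratios of 0.14, 0.10 and 0.11. The next lowest values, on the arms of chromosome 19, were -0.62 and -0.57, at 19.6 and 15.8 such regions per Mb. The long arm of chromosome 18, at 5.78 per Mb, had 0.33, and the parts nearest to it were the short arm of chromosome 7 with -0.33, chromosome 21 with 0.05 and the long arm of chromosome 6 with 0.18.

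**Figure D2:**
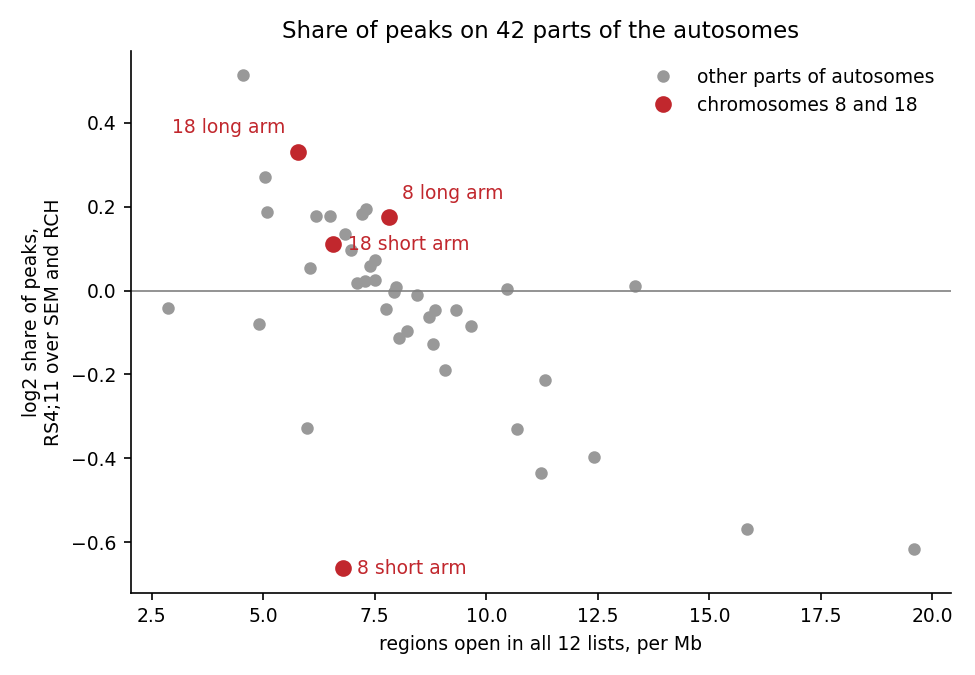
Each point is 1 of 42 parts of the autosomes, placed by its density of common regions, in regions per Mb (x), and by the log2 ratio of its share of peaks in RS4;11 over SEM and RCH (y). The short arm of chromosome 8, at 6.78 per Mb and -0.66, lies below the parts of like density, and both arms of chromosome 18 and the long arm of chromosome 8 lie above 0.

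Along chromosome 8 the place of RS4;11 among the lines turned at the stretch without peaks, and along chromosome 18 it did not. In windows of 5 Mb with at least 50 merged regions, the percentage of regions with a peak was averaged over the 4 lists of a line. RS4;11 was lowest of the 3 lines in 9 of 9 windows of the short arm of chromosome 8, against 3.76% of the windows of the other autosomes and 5.08% of all 551 windows. It was highest in 21 of 21 windows of the long arm and in 16 of 16 of chromosome 18, against a high background of 84.6% of all windows. The last short-arm window, at 40 to 45 Mb, had 38.8% in RS4;11, 44.8% in SEM and 43.7% in RCH. The first long-arm window, at 45 to 50 Mb, had 44.3% in RS4;11, 21.96% in SEM and 30.0% in RCH. With lists of equal length, RS4;11 was also lowest in 9 of 9 short-arm windows, against 23.7% of windows of the other autosomes. It was then highest in 14 of 21 long-arm windows and in 14 of 15 windows of chromosome 18, against 42.9% elsewhere.

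**Figure D3:**
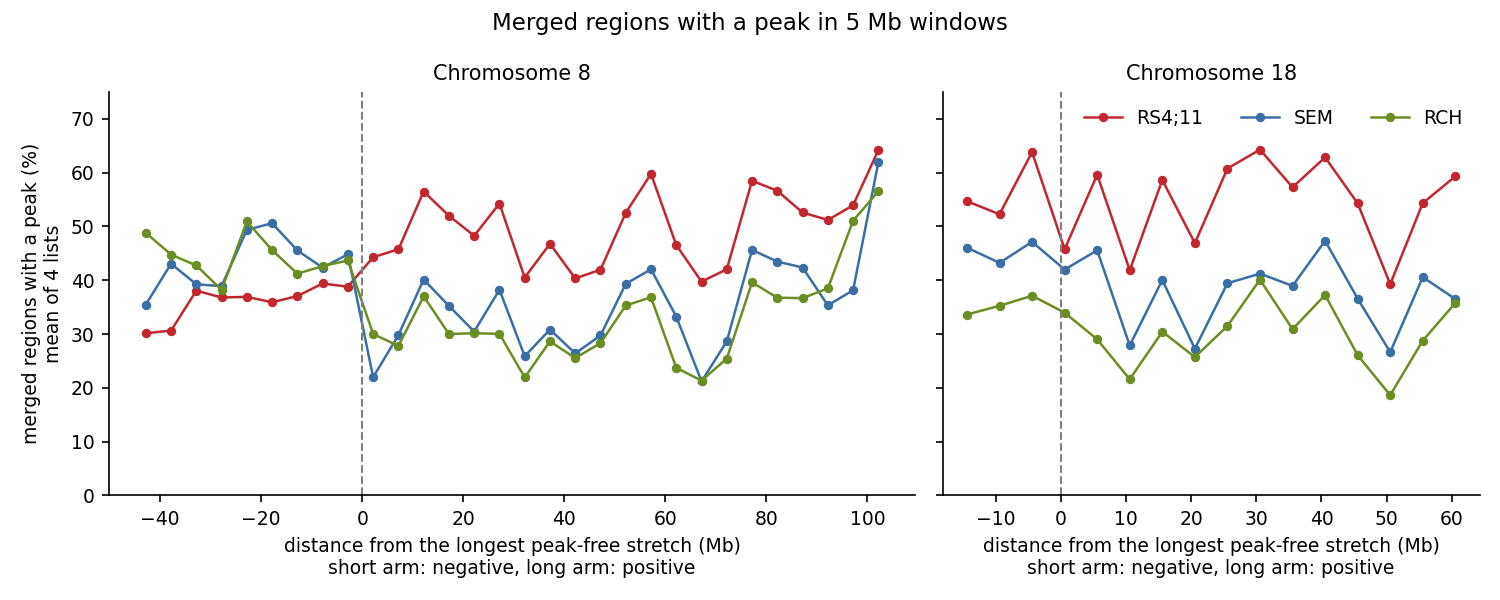
Percentage of merged regions with a peak in 5 Mb windows, averaged over the 4 lists of each line, against the distance in Mb from the middle of the longest stretch without peaks (dashed line). On chromosome 8, RS4;11 runs below SEM and RCH in all 9 short-arm windows and above them in all 21 long-arm windows, and on chromosome 18 it runs above them in all 16 windows.

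Within the arms the windows varied widely in all lines. On chromosome 8, RS4;11 had its highest value at 145 to 150 Mb, with 64.2%, and its lowest at 0 to 5 Mb, with 30.1%. SEM and RCH had their highest values in that same last window, with 61.9% and 56.5%, but their lowest at 110 to 115 Mb, with 21.2% and 21.3%. On chromosome 18 all lines were lowest at 65 to 70 Mb, with 39.3% in RS4;11, 26.6% in SEM and 18.6% in RCH. RS4;11 and RCH were highest at 45 to 50 Mb, with 64.3% and 40.1%, and SEM at 55 to 60 Mb, with 47.3%.

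The lower share on the short arm of chromosome 8 was not a single stretch without peaks. Among regions open in at least 4 lists of the other lines, the longest run without a peak in RS4;11 held 4 regions on chromosome 8, from 9947168 to 10131739 on the short arm. On chromosome 9 such a run held 80 regions in that line. In SEM the longest run of chromosome 8 held 7 regions, from 143591466 to 143696256, and in RCH 6, from 125269144 to 125376741. On chromosome 18 these runs held 3 regions in RS4;11 (19830430 to 20140357), 5 in SEM (8780136 to 8829254) and 6 in RCH (21634057 to 21757393).

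Most regions that were open throughout SEM and RCH were open in RS4;11 too, with fewer kept on the short arm of chromosome 8. Of 359 regions there with a peak in all 8 lists of SEM and RCH, 82.5% had one in all 4 lists of RS4;11, against 94.6% of 20516 on the other autosomes. In that line no peak was called at 18 of the 359, or 5.01% (exact 95% binomial interval 2.998 to 7.81), against 2.003% (1.82 to 2.20) on the other autosomes and 2.03% over all autosomes. On the long arm it was 13 of 817, or 1.59% (0.850 to 2.71), and on chromosome 18 it was 8 of 467, or 1.71% (0.742 to 3.35). The short arm of chromosome 7 was close to that of chromosome 8, with 17 of 378, or 4.497% (2.64 to 7.103). There, however, 91.5% of the 378 regions had a peak in all 4 lists of RS4;11. These intervals cover counting error only, since regions are not replicates.

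The fold enrichment that the authors gave each peak provides a second readout. It was compared only by rank within a list, among the 20934 regions open in all 12 lists, so that the same regions were ranked in every list. On the short arm of chromosome 8, the mean percentile of 296 such regions was 48.0 and 47.5 with sh2 and 49.2 and 48.6 with NT in RS4;11, 51.2 and 51.5 with sh2 and 50.2 and 51.9 with NT in SEM, and 50.8 and 51.2 with sh2 and 54.5 and 53.0 with NT in RCH. RS4;11 ranked these regions lower in all 4 lists than SEM and RCH did in any. The difference was -3.45 percentile points (exact permutation p = 0.0667, the smallest possible, 0.336 adjusted over the 42 parts), against 11.9% of parts on which it lay below all others. It stood at place 9 of the 42 parts from the lowest, and the short arm of chromosome 19 was lowest with -13.96.

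On the long arm of chromosome 8, the 778 common regions had mean percentiles of 53.3 and 54.2 with sh2 and 56.2 and 56.2 with NT in RS4;11, 52.1 and 52.4 with sh2 and 46.2 and 47.3 with NT in SEM, and 47.2 and 47.0 with sh2 and 52.98 and 52.2 with NT in RCH. All 4 lists of the line were above the rest, which held for 7 of 42 parts (16.7%), and the difference was 5.29 points (exact permutation p = 0.133). The values of SEM and RCH moved by several points between sh2 and NT, in opposite directions.

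On chromosome 18 the 445 common regions had mean percentiles of 54.8 and 54.6 with sh2 and 58.1 and 57.2 with NT in RS4;11, 52.8 and 54.4 with sh2 and 48.5 and 49.1 with NT in SEM, and 46.9 and 47.5 with sh2 and 52.7 and 54.1 with NT in RCH. The line was above all other lists, by a narrow margin over SEM sh2. The difference was 5.46 points, the second highest of the 22 autosomes (exact permutation p = 0.133, 0.326 adjusted over 22), and it lay above all others on 9.09% of the autosomes. For the whole of chromosome 8 it was 2.88 points (exact permutation p = 0.2).

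**Figure D4:**
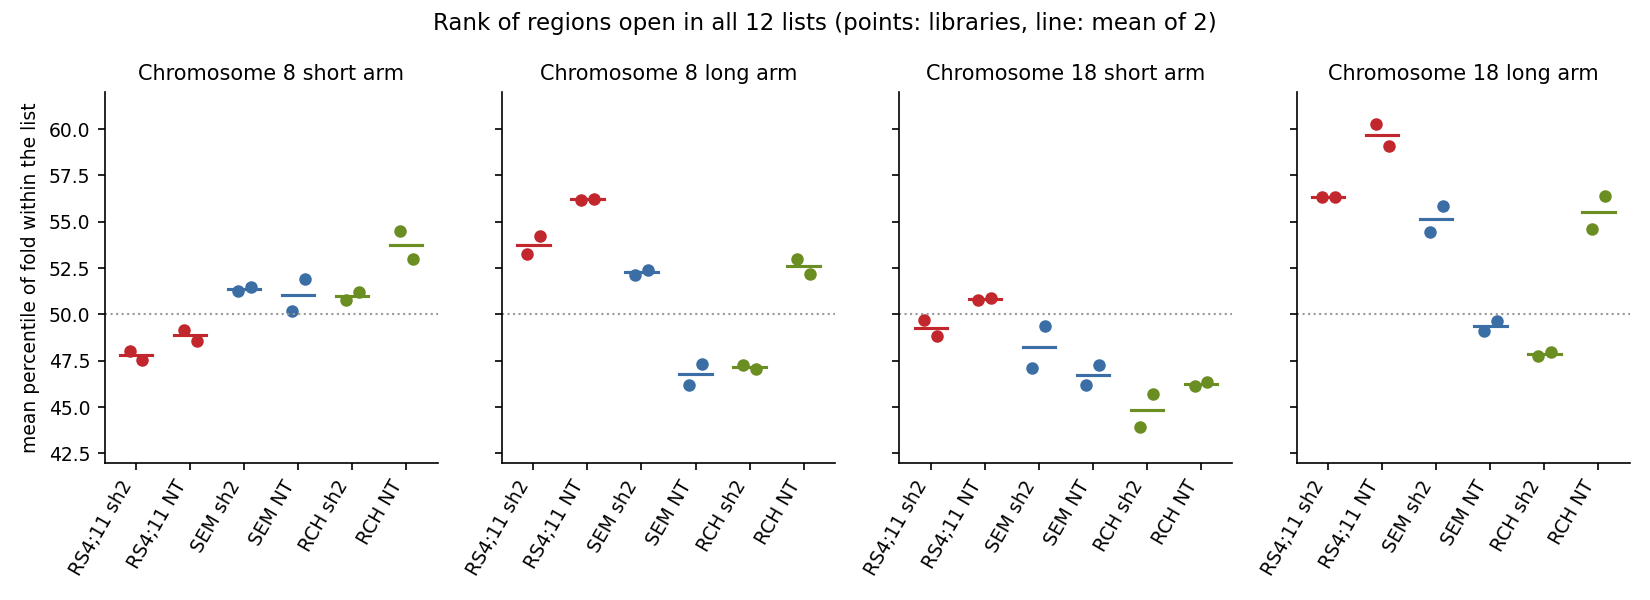
Mean percentile of the fold enrichment within each list for regions open in all 12 lists, by arm, with 1 point per library, a line at the mean of the 2 libraries and a dotted line at the middle rank. RS4;11 lies below all others on the short arm of chromosome 8 and above all others on its long arm, while on both arms of chromosome 18 it overlaps slightly with points of the other lines.

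Over all peaks of a list, rather than regions open in every list, the ranking on the short arm differed. The peaks that RS4;11 had there stood at a mean percentile of 52.9 to 53.7 within their own lists, against 50.1 to 50.2 for the other autosomes, and their median fold was 6.97 to 7.64, against 6.67 to 7.10. In RCH, which had the most short-arm peaks, they stood at 42.8 to 47.4, against 50.3 to 50.4. SEM lay between, with 47.9 to 50.1, and was above the other autosomes in 1 of 4 lists. The line with the fewest short-arm peaks thus ranked them highest within its lists. Ranks in lists of different length show no change in level. On the long arm the mean percentile was below that of the other autosomes in 12 of 12 lists, with 45.8 to 47.2 in RS4;11. On chromosome 18 it was 48.6 to 50.5 and above the other autosomes in 2 of 12 lists. Peaks were somewhat narrower than elsewhere, with medians of 303 to 341 bp on chromosome 8 and up to 343 bp on chromosome 18, against 327 to 371 bp, and on both chromosomes they were narrower within each of the 12 lists.

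Regions were then counted that were open in all 4 lists of a line and in none of the 8 others. Over all autosomes 2.02% of regions were restricted to RS4;11 in this way, 0.968% to SEM and 0.908% to RCH. Chromosome 18 held 118 such regions of RS4;11 among 3575, or 3.30% (interval 2.74 to 3.94), against 1.99% (1.91 to 2.07) on the autosomes other than 8 and 18, an odds ratio of 1.69 (1.38 to 2.04). It ranked second of the 22 autosomes after chromosome 13, with 4.20%. Chromosome 4 had 1.83%. The same count on sh2 lists alone, where 4.3% of all regions were restricted to the line, gave an odds ratio for chromosome 18 of 1.48 (1.28 to 1.70). On NT lists alone, with 8.62%, it was 1.55 (1.40 to 1.72).

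Chromosome 8 held 160 RS4;11-restricted regions among 8266, or 1.94% (1.65 to 2.26), close to the background. By arm the counts parted. The short arm had 16, or 0.766% (0.439 to 1.24), with an odds ratio of 0.38 (0.22 to 0.62) against the other autosomes. It also had 32 SEM-restricted regions, or 1.53% (1.05 to 2.16), with an odds ratio of 1.58 (1.07 to 2.25), and 52 RCH-restricted regions, or 2.49% (1.87 to 3.25), with an odds ratio of 2.79 (2.07 to 3.71). This RCH share was matched by the short arm of chromosome 7, with 53 of 2130, or 2.49%, and these were the highest of the 42 parts. Of the 52 regions, 23 lay at 0 to 5 Mb and 10 at 5 to 10 Mb.

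The long arm of chromosome 8 had 144 RS4;11-restricted regions, or 2.33% (1.97 to 2.74), 42 SEM-restricted, or 0.680% (0.490 to 0.918), and 35 RCH-restricted, or 0.567% (0.395 to 0.787). The first of these had an odds ratio of 1.18 (0.99 to 1.40). Of the RCH-restricted regions, 17 lay in the window at 140 to 145 Mb. On chromosome 18, 29 regions were restricted to SEM, or 0.811% (0.544 to 1.16), and 23 to RCH, or 0.643% (0.408 to 0.964). The 118 restricted regions of chromosome 18 described above were spread along it, with 2 to 13 in each window but that at 15 to 20 Mb, which had 0 among 53 regions.

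**Figure D5:**
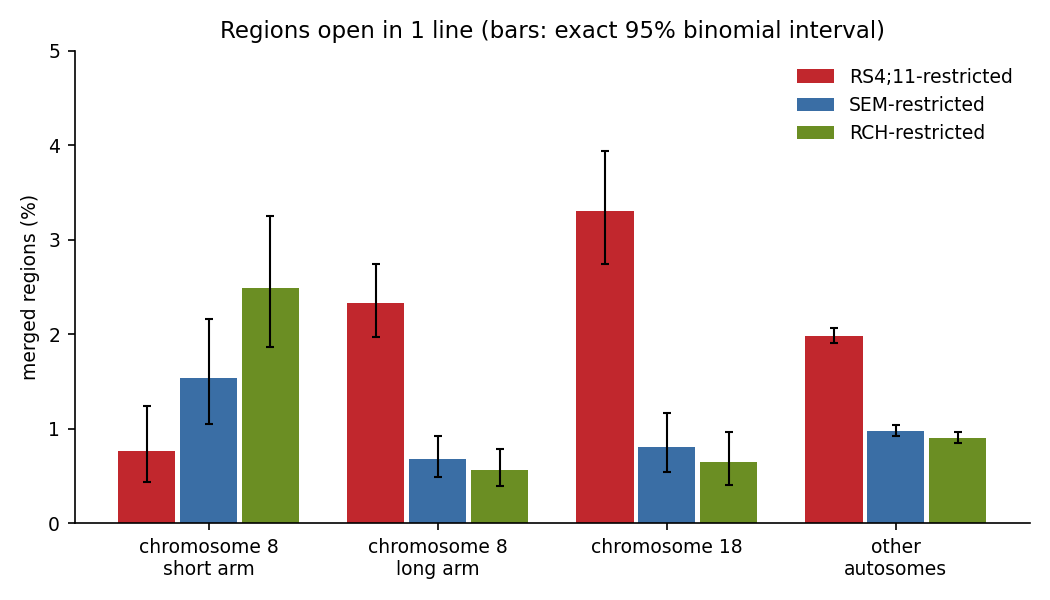
Percentage of merged regions with a peak in all 4 lists of a single line and in none of the 8 others, on both arms of chromosome 8, on chromosome 18 and on the other autosomes, with exact 95% binomial intervals that cover counting error only. RS4;11 is lowest of the 3 lines on the short arm of chromosome 8 with 0.766% and highest in the other 3 classes, with 3.30% on chromosome 18.

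Restricted regions were named by how high their folds ranked within the lists. The 3 of RS4;11 on chromosome 8 all lay on the long arm. Region 130958656 to 130959156 had folds of 13.6 and 13.03 with sh2 and 13.8 and 11.2 with NT, region 53944727 to 53945653 had 12.6 and 11.8 with sh2 and 12.3 and 13.3 with NT, and region 138766241 to 138767118 had 9.96 and 11.3 with sh2 and 13.2 and 11.8 with NT. The 2 of RCH both lay on the short arm, at 5598802 to 5599901 with folds of 9.89 and 8.16 (sh2) and 13.5 and 11.1 (NT), and at 7770992 to 7771320 with 8.73 and 9.80 (sh2) and 12.6 and 9.87 (NT). Those of SEM lay one on each arm, at 119633897 to 119634800 with folds of 16.3 and 14.0 (sh2) and 8.16 and 9.91 (NT), and at 13424114 to 13424523 with 12.3 and 12.5 (sh2) and 8.38 and 10.7 (NT).

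On chromosome 18 the first of the RS4;11-restricted regions ran from 32579625 to 32580206, with folds of 16.1 and 12.8 (sh2) and 16.3 and 17.1 (NT). The second lay on the short arm at 14299039 to 14299742, with 15.9 and 12.8 (sh2) and 13.99 and 14.4 (NT). The third, at 22062810 to 22063203, had 9.47 and 12.5 (sh2) and 10.6 and 11.3 (NT). Mean percentiles of these 3 were 92.7, 89.9 and 77.4, against 75.6 to 80.7 for the regions named for SEM and RCH on this chromosome, which were drawn from fewer candidates. Those of SEM lay at 26764612 to 26765116, with folds of 10.2 and 12.1 (sh2) and 7.78 and 7.91 (NT), and at 25583454 to 25583797, with 12.4 and 12.97 (sh2) and 7.06 and 7.14 (NT). Those of RCH lay at 48086074 to 48086770, with 9.30 and 7.05 (sh2) and 11.2 and 9.60 (NT), and at 77724387 to 77724776, with 7.14 and 7.97 (sh2) and 13.2 and 7.06 (NT).

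Regions open in all 12 lists were less frequent here than elsewhere, with 1074 on chromosome 8 (12.99%, interval 12.3 to 13.7) and 445 on chromosome 18 (12.4%, 11.4 to 13.6), against 17.0% (16.8 to 17.2) on the other autosomes and 16.6% on all. Chromosomes 4 and 13 had 11.2% and 11.4%. The 3 with the highest fold percentile on chromosome 8 lay on the long arm, from 94766873 to 94767487, from 53134650 to 53135366 and from 117778076 to 117779310. The first had folds of 25.6 to 27.1 in RS4;11, 16.95 to 20.8 in SEM and 17.8 to 24.8 in RCH. On chromosome 18 they ran from 71958950 to 71959811, from 14132104 to 14132794 and from 57025949 to 57027053, and the first had folds of 20.9 to 22.3 in RS4;11, 16.3 to 19.8 in SEM and 16.6 to 20.2 in RCH. Folds are not normalized between lists, so these show no change in level.

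Between sh2 and NT cells, the share of either chromosome differed in no common direction over the lines. On a log2 scale, sh2 over NT, the share of chromosome 8 stood at -0.10 for RS4;11, 0.07 for SEM and -0.13 for RCH, with -0.05 ± 0.11 as the mean (SD over 3 lines). A sign-flip test over lines, exact and two-sided, gave p = 0.5, where the smallest possible is 0.25. For chromosome 18 it was -0.07, 0.11 and -0.29, and the mean was -0.08 ± 0.20 (exact sign-flip p = 0.75). In each line the sh2 and NT lists of these chromosomes did not overlap. Such separation was common, with 54.5% of the autosomes higher and 45.5% lower in the sh2 lists of RS4;11, 40.9% and 36.4% in SEM, and 45.5% and 40.9% in RCH. On the short arm of chromosome 8 the log2 ratios were small, with -0.05 in RS4;11, -0.02 in SEM and -0.02 in RCH (exact sign-flip p = 0.25, the smallest possible).

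Regions open in both sh2 and no NT libraries of a line, or the reverse, were mostly NT-only in RS4;11 and RCH and mostly sh2-only in SEM, on these chromosomes as over all autosomes. In RS4;11, chromosome 8 had 34 sh2-only and 644 NT-only regions among 5637 with a peak in the line, or 0.603% and 11.4%, and chromosome 18 had 16 and 323 among 2826, or 0.566% and 11.4%. Over all autosomes these shares were 0.879% and 9.72%. In SEM, chromosome 8 had 373 and 88, or 8.58% and 2.02%, and chromosome 18 had 211 and 49, or 10.4% and 2.42%, against 7.56% and 2.63% over all autosomes. In RCH, chromosome 8 had 47 and 552, or 0.946% and 11.1%, and chromosome 18 had 18 and 266, or 0.992% and 14.7%, against 1.94% and 10.5%. Of the regions that changed on chromosome 8, the sh2-only made up 5.01% in RS4;11 (3.498 to 6.94), 80.9% in SEM (77.0 to 84.4) and 7.85% in RCH (5.82 to 10.3), against 8.68%, 73.5% and 16.4% on the autosomes other than 8 and 18. Chromosomes 4 and 13 were further from these, with 2.41% and 3.03% in RS4;11, 83.4% and 86.0% in SEM, and 3.12% and 4.81% in RCH. The number of peaks moved with these counts, with 59502 and 61253 autosomal peaks with sh2 against 81527 and 71463 with NT in RS4;11, and its part in them was not tested.

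In at least 2 lines, 6 regions of chromosome 8 (0.0726%) and 3 of chromosome 18 (0.0839%) were sh2-only, near the 0.0919% of all autosomal regions. NT-only were 97 (1.17%) and 49 (1.37%), against 1.09% of all autosomal regions. The 2 sh2-only regions of highest fold percentile lay on the short arm of chromosome 18. One, from 2104716 to 2105202, was sh2-only in SEM and RCH and open throughout RS4;11, where its folds were 5.50 and 5.97 with sh2 and 5.30 and 5.67 with NT. The other, from 2516226 to 2516686, was sh2-only in RS4;11 and SEM, where its sh2 folds were 4.46 and 4.97 for RS4;11 and 6.61 and 6.68 for SEM, and it had no peak in RCH. The 2 NT-only regions lay on the long arm of chromosome 8 and were NT-only in RS4;11 and RCH. In the first, from 108715554 to 108716111, NT folds were 12.2 and 12.6 for RS4;11 and 7.62 and 6.89 for RCH, and SEM kept a peak with 16.5 and 15.7 in sh2 and 12.5 and 12.3 in NT. In the second, from 119805418 to 119806056, NT folds were 11.6 and 9.60 for RS4;11 and 6.94 and 6.99 for RCH, and SEM had 17.7 and 15.8 in sh2 and 10.96 and 14.1 in NT.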

How the data were processed

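ATAC-seq peak lists of 6 samples (RS4;11, SEM and RCH, each with sh2 or NT) were used, with 2 lists per sample. Per the submitters' processing notes, Bowtie2 and MACS2 were used with hg19, while versions, settings and duplicate removal are not stated there. In column 5 of each deposited list the authors give a number per peak, here taken for MACS2's fold enrichment (a ratio to local background) because values ran from 1.60 to 44.2 and were not whole. It is not normalized between lists. Depth is unknown, and no depth floor was given.

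Peaks on the 22 autosomes (695442) were used, which left out 23490 on the sex chromosomes. Merging needed an overlap of 1 bp and was checked with bedtools 2.31.1. A list was open in a region where a peak overlapped it by 1 bp. Shares and percentiles were computed per list, averaged per sample, and compared over samples by exact permutation (15 splits) with Benjamini-Hochberg adjustment over all chromosomes or parts. Restricted regions were counted over the lists together and were not tested, since regions are not replicates. sh2 and NT were paired by cell line, as named in the titles. Odds ratios have exact conditional 95% intervals. Chromosomes were divided at their longest stretch without a region, where both sides kept at least 100 regions. On chromosomes other than 8 and 18 that stretch need not be the centromere. Named regions followed a fixed rule, the highest mean within-list percentile of fold in each class. Members, classes and rules were chosen with earlier results of these data known, and the division into arms, the densities and the windows of equal lists were added after the values were seen. The steps were tested on simulated lists. Alternatives were lists of equal length (40506 peaks of highest fold), peaks above the pooled median fold of 6.37, coverage of 50% of a region, 2 of 4 lists for restricted regions, sh2 or NT lists alone, no pairing, and each list left out. Genes were not assigned, since no hg19 annotation was used. Tests and intervals came from scipy 1.17.1, tables from pandas 2.3.3 with numpy 2.4.6, and figures from matplotlib 3.10.9, under Python 3.11.15.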

Additional observations from a re-analysis of the deposited data

Results flagged for a closer look

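Between sh2 and NT cells, the share of peaks on both chromosomes differed in opposite directions in SEM and in the other lines, as it did on 17 of the 22 autosomes. The log2 ratio of the share of peaks, sh2 over NT, was 0.074 for chromosome 8 in SEM, against -0.10 in RS4;11 and -0.13 in RCH. For chromosome 18 it was 0.11 in SEM, against -0.066 in RS4;11 and -0.29 in RCH. In each line both sh2 lists lay on 1 side of both NT lists. With 1 sample per line and shRNA, the difference between lines was not tested.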

How the results depend on the processing

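Of 84 values recomputed under other settings than the omission of a list, 81 kept their direction and side of the threshold or stayed within the counting interval, and 216 of 216 with 1 list left out did so. Tests over 6 samples could not pass 0.05 in any setting. For shares and percentiles these counts therefore speak of direction only, and not of size. With peaks above the pooled median fold, the log2 ratio of the share of chromosome 8 in RS4;11 over SEM and RCH turned to 0.032, and the odds ratio of RS4;11-restricted regions became 1.16 for chromosome 8 and 1.43 for its long arm. The cause was not tested. The short-arm share of chromosome 8 gave -0.56 with lists of equal length, -0.43 above the median fold, -0.68 in sh2 and -0.65 in NT lists, and -0.68 to -0.65 with 1 list left out. Chromosome 18 gave 0.27, 0.33, 0.29, 0.28 and 0.28 to 0.29 in the same settings. The percentile difference on the short arm of chromosome 18 was 0.51 above the median fold, against 3.54 as deposited. Lines paired sh2 with NT. Without the pairing (no replicate block), sh2 over NT gave a log2 ratio of -0.06 for chromosome 8 and -0.07 for chromosome 18 (exact permutation p = 0.7 for both), and no call changed. Each line stands for 1 culture or a pair, so what differs between lines cannot be told apart from what differs between their cultures or library runs.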

Other observations

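An isochromosome of the long arm of chromosome 7 has been described in RS4;11. In its balance of arms, this chromosome had the second lowest difference of that line from SEM and RCH, of the 20 autosomes that could be divided. Its short arm held 1.41% to 1.44% of peaks in RS4;11, against 1.35% to 1.46% in SEM and 2.04% to 2.25% in RCH. The difference of RS4;11 from the other lines in the log2 ratio of short over long arm was -0.48, and -0.83 on chromosome 8 (exact permutation p = 0.133 for chromosome 7 and 0.0667, the smallest possible, for chromosome 8). SEM had a low short arm as well, so on chromosome 7 RCH stood apart, with a log2 ratio of 0.60 for its short-arm share over RS4;11 and SEM, the highest of 42 parts. On the short arm of chromosome 8, the shares of all 3 lines differed. These values were picked after the data were seen.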
